A study of Mus musculus with 12 samples.

Results

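Hematopoietic lineage transcription factors, the DNA-binding proteins that set and hold the identity of blood cells, were followed as a group of 10 genes in cultured mouse female germline stem cells (FGSCs). The members were *Lyl1*, *Tal1*, *Gata2*, *Runx1*, *Gata1*, *Mitf*, *Spi1*, *Cebpa*, *Runx3* and *Ikzf1*, and their rows were found by matching the RefSeq accession of each row of the count table to a gene symbol. All 10 were found, out of 24813 genes in the table, and together they had 26 of its 41388 transcript rows. In these cells *Spi1*, *Runx3* and *Lyl1* were read at mean levels of 104.5, 155.4 and 115.9 CPM (counts in each 1000000 counts of a library, scaled between libraries), and *Gata1* at 6.98. *Lyl1* was lower in the *Stella*-knockout line than in its control and higher in the *Stella*-overexpressing line than in its own control. No other member that could be tested passed in either comparison. In the knockout comparison 3 of the 10 members could not be tested, and in the overexpression comparison 5 could not. The control groups lay further apart in *Lyl1* than either line and its control, and exchanging the controls turned both directions. The *Lyl1* call in the overexpressing line was lost on leaving out most single libraries.

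RNA-seq was performed on 12 libraries of C57BL/6 FGSCs kept for more than 20 passages on mitotically inactivated STO feeder cells, a mouse fibroblast line, with LIF, EGF, bFGF and GDNF. KO was a *Stella* (*Dppa3*) knockout made with CRISPR sgRNAs delivered by lentivirus, and it was 1 clone grown from a single cell. KO-con was its knockout control, Over was transduced with a lentivirus carrying *Stella* and selected with puromycin, and Over-con carried the empty lentiviral vector, with 3 libraries in each of the 4 groups. The knockout cannot be told apart from the clone that carried it, and since nothing in the sources used here says that the 3 libraries of a group came from separate cultures, p-values measure the spread between these libraries, which may be technical.

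Transcription factors of this kind act in combinations. The basic helix-loop-helix factors *Tal1* and *Lyl1* bind DNA with E proteins and meet GATA and RUNX factors at shared enhancers in blood stem and progenitor cells. *Gata1* drives red cells, megakaryocytes and mast cells, *Mitf* acts in mast cells and pigment cells, *Spi1* (PU.1) and *Cebpa* (C/EBP alpha) direct the myeloid lineages, and *Ikzf1* (Ikaros) and *Runx3* act in lymphocytes.

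The libraries held from 5611846 counts (Over-con replicate 2) to 12866545, the median being 10221419. CPM were scaled with TMM factors over all 12 libraries, and 3 counts corresponded to between 0.233 and 0.535 CPM. The targeted gene *Dppa3* had 0 counts in all KO, KO-con and Over-con libraries, so it did not separate KO from KO-con, and it had 347, 371 and 285 counts in Over. Of the germ cell markers, *Ddx4*, *Tfap2c*, *Figla* and *Gfra1* were at 0 in all 12 libraries, of which *Figla* was listed with 1 transcript, and most of that list's summed level came from *Ifitm3*, which many cell types use. Fibroblast and feeder markers summed to between 2966 and 3441 CPM, mostly *Vim*, *Col1a2* and *Col1a1*. Mast cell markers summed to between 635.6 and 1705 CPM, mostly *Cpa3*, while *Fcer1a*, *Ms4a2* and *Tpsab1* of that list were at 0, the first and second of them defining subunits of the IgE receptor. *Tpsab1* was listed only as a noncoding transcript. Of the 22 germ cell markers 4 had a mean above 1 CPM, among them *Dppa3*, which had counts only in Over. The germline label thus had little from its own markers in this table. The paper reported *Mvh* (*Ddx4*), *Oct4*, *Fragilis*, *Stella*, *Dazl* and *Blimp1* in its FGSCs by RT-PCR, and MVH, STELLA and OCT4 by immunofluorescence. Zero counts here carry little weight for genes with several listed transcripts, as set out next.

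Which members could be read depended on how many transcripts the table listed for them. *Spi1*, *Gata1*, *Lyl1* and *Runx3* were listed with 1 transcript each, *Gata2* and *Tal1* with 2, *Mitf* with 3, *Runx1* with 4, *Cebpa* with 5 and *Ikzf1* with 6. All transcripts of *Runx1*, *Cebpa* and *Ikzf1* had 0 counts in all 12 libraries. Over the whole table, 50.6% of 13105 protein-coding genes with 1 listed transcript had a mean of 10 counts or more, against 23.3% of 5594 genes with 2 or 3 and 23% of 1947 genes with 4 or more. The partners and other blood transcription factors, a list of 53 genes used as context, were at 0 in 15 cases, but of its 20 genes with 1 listed transcript 1 was at 0. How reads shared between transcripts were treated was not given in the sources used here. The zeros of *Runx1*, *Cebpa* and *Ikzf1* therefore say nothing on whether these genes were transcribed, and the low values of *Gata2*, *Tal1* and *Mitf* may leave out reads.

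**Figure D1:**
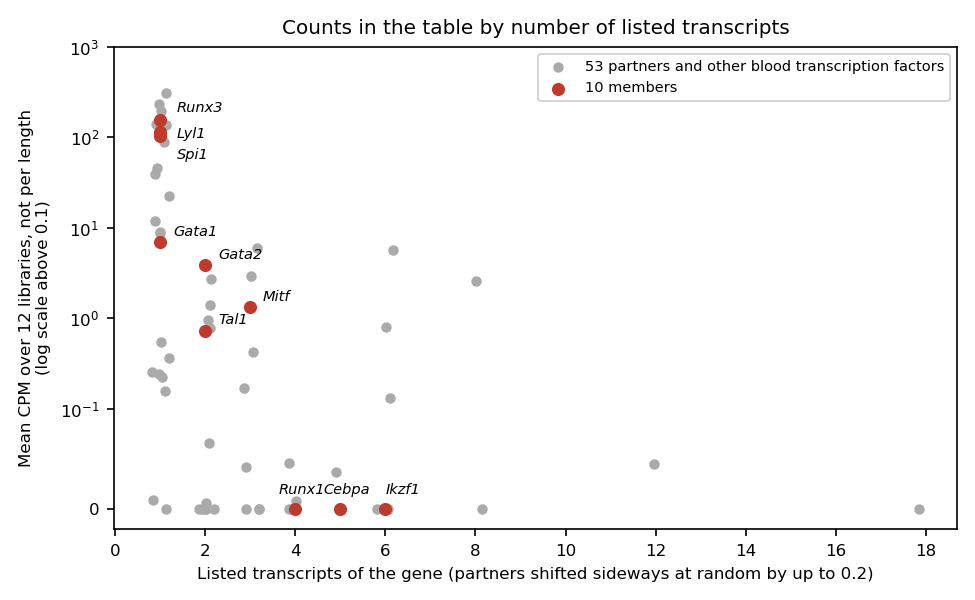
Mean CPM over 12 libraries, not divided by length (vertical axis, log scale above 0.1), against the number of transcripts the table lists for a gene (horizontal axis), for the 10 members (red) and 53 partners and other blood transcription factors (grey). *Spi1*, *Lyl1* and *Runx3*, each with 1 listed transcript, lie above 100 CPM, *Gata1* lies at 6.98 CPM, and the 3 members with 4 or more listed transcripts lie at 0.

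Levels of different members were compared only per length, as CPM per kilobase of the longest annotated coding transcript, and only among the 4 members with 1 listed transcript. Averaged over the 12 libraries, *Lyl1* stood at 64.4 CPM per kilobase, *Spi1* at 51.4, *Runx3* at 40.0 and *Gata1* at 3.67. The order of the first 3 depended on the group. In KO-con, *Lyl1* (89.2 ± 6.86, SD, n = 3) stood above *Spi1* (46.5 ± 4.41) and *Runx3* (39.5 ± 2.94) by more than their spread. In Over-con, *Spi1* (50.7 ± 3.87), *Runx3* (45.2 ± 3.32) and *Lyl1* (43.2 ± 8.22) lay within about their spread of each other. *Gata1* was last in all 4 groups, between 3.30 and 4.60 CPM per kilobase. In a bulk library, more cells of one kind and more RNA in each cell cannot be told apart.

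Among the blood progenitor factors, *Lyl1* was the member that separated the groups. The gene lies on mm9 chromosome 8 from 87225356 to 87228614, plus strand. In KO-con it had 173.4, 148.8 and 159.3 CPM (160.5 ± 12.3), and in KO it had 95.6, 134.1 and 111.1 CPM (113.6 ± 19.4). Every KO library was below every KO-con library. In Over-con *Lyl1* had 69.3, 69.0 and 94.8 CPM (77.7 ± 14.8), and in Over it had 113.2, 120.9 and 101.0 CPM (111.7 ± 10.0). Every Over library was above every Over-con library, and KO and Over, which were not compared by a test, covered overlapping ranges. The means of the control groups lay further apart than the mean of either line and its control.

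In edgeR's quasi-likelihood test, with p-values adjusted by Benjamini-Hochberg across every transcript in the fit, *Lyl1* fell in KO by 0.49 on the log2 scale (SE 0.10, adjusted p = 0.004178). It rose in Over by 0.51 (SE 0.11, adjusted p = 0.02789). The knockout effect minus the overexpression effect, tested with all 12 libraries in 1 fit, was -0.999 (SE 0.17, 95% interval -1.35 to -0.65, adjusted p = 0.0005552). KO-con stood above Over-con by 1.04 (SE 0.10, adjusted p = 4.60e-07), and this comparison shares its libraries with both of the others. With the controls exchanged the direction turned in both comparisons: KO was 0.54 above Over-con (adjusted p = 0.027), and Over against KO-con was -0.53 (adjusted p = 1.03e-06). The call in Over was also lost on leaving out any 1 library other than replicate 3 of Over-con, with adjusted p between 0.05488 for Over replicate 3 and 0.1834 for Over replicate 2. *Lyl1* lies inside the span of *Nfix* on the opposite strand, but 4 of its 1800 exonic bases are exonic in *Nfix*, itself a gene with several listed transcripts, which had 60 counts in all libraries together.

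The promoters of *Lyl1* and *Runx3* are shown as the member that passed the test and the one nearest to passing it. They were searched on both strands for short core motifs of the members' own families, since blood factors commonly act on each other's genes. The motifs were GATAA (GATA factors), GAGGAA (PU.1 and other ETS factors), ACCACA (RUNX factors), CAGCTG (the E-box of helix-loop-helix factors) and TTGCGCAA (C/EBP), none of which overlaps another in the sequences below. Among 32851 mouse promoters of the same 250 bases upstream of the start, 22.6%, 23.3%, 14%, 13% and 0.164% held them, in that order. The sequences, from RefSeq on GRCm38.p6, run 5′ to 3′ on the gene's own strand, with motif letters in capitals. The *Lyl1* stretch is chr8:84701207-84701456 and the *Runx3* stretch, upstream of the first of its 2 listed starts, is chr4:135120395-135120644, both on the plus strand.
Lyl1: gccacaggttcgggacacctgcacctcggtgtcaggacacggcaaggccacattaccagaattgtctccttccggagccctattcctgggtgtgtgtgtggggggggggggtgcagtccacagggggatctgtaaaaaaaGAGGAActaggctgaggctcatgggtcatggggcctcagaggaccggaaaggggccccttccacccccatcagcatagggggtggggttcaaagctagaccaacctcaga
Runx3: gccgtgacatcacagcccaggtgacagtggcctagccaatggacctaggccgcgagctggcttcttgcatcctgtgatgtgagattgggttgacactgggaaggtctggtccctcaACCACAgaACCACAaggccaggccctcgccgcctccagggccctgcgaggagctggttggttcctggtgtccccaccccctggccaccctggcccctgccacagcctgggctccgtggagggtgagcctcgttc
The *Lyl1* stretch held 1 match to GAGGAA, and the *Runx3* stretch held 2 matches to ACCACA. The stretch upstream of the other *Runx3* start, not shown, held 0 matches to any of the motifs. RefSeq promoters were found for 9 of the 10 members, *Spi1* being the exception, and 16 promoters were searched in all. Such matches are common letters and are a description of the sequence, not sites of binding.

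*Gata2*, the GATA factor of blood stem and progenitor cells and of mast cells, lies on mm9 chromosome 6 from 88143885 to 88157024, plus strand. Its main transcript had 3.34, 3.73 and 3.50 CPM in KO-con and 4.46, 2.45 and 1.63 in KO. In Over-con it had 1.84, 0.702 and 5.59 CPM, and in Over 5.46, 5.51 and 2.79. The groups overlapped in both comparisons, and the values rested on few reads, from 4 counts in Over-con replicate 2 to 71 in Over replicate 2. The log2 fold change was -0.34 in KO (95% interval -1.01 to 0.32, adjusted p = 0.551) and 0.63 in Over (-0.27 to 1.54, adjusted p = 0.5834). The value in KO was -0.78 without replicate 1 of KO (adjusted p = 0.09453) and -0.07 without replicate 3 (adjusted p = 0.9208). Replicate 3 of Over-con decided the value in Over: without it the change in Over was 1.72 (adjusted p = 0.006136), and the knockout effect minus the overexpression effect was -2.07 (adjusted p = 0.01882). Its other listed transcript had between 0 and 10 counts in a library.

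*Tal1* (SCL), which is needed to form blood at all, lies on mm9 chromosome 4 from 114729031 to 114744360, plus strand. One of its transcripts had 0 counts in every library, and the other had 4, 8 and 6 counts in KO-con, 11, 15 and 13 in KO, 8, 3 and 4 in Over-con, and 4, 8 and 4 in Over. The 3 KO libraries were close together at 1.26, 1.31 and 1.18 CPM and above the other 9, the next being 0.817 CPM in Over-con. Against KO-con the log2 fold change was 1.01 (SE 0.42, adjusted p = 0.1415), which did not pass. *Tal1* entered the knockout comparison only because KO was high enough for the filter on low counts, and it was too low to be tested in Over or between the controls. *Runx1*, required for the first blood stem cells, lies on mm9 chromosome 16 from 92601712 to 92826311, minus strand, and gave no count.

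*Gata1*, on mm9 chromosome X from 7536386 to 7555197, minus strand, had 7.82, 5.41 and 6.15 CPM in KO-con and 5.26, 6.64 and 6.90 in KO. Those ranges overlapped, with a log2 fold change of -0.03 (95% interval -0.44 to 0.39, adjusted p = 0.9574). It had 7.15, 5.62 and 6.55 CPM in Over-con against 7.96, 9.78 and 8.49 in Over. All Over libraries were above all Over-con libraries, but the change of 0.42 (95% interval 0.06 to 0.78) did not pass (adjusted p = 0.3022). The knockout effect minus the overexpression effect was -0.44 (95% interval -0.97 to 0.08, adjusted p = 0.3212), so the *Gata1* responses were not shown to differ.

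*Mitf*, on mm9 chromosome 6 from 97757052 to 97971352, plus strand, was near the limit of the data. Its best-covered transcript had between 2 and 13 counts in a library and the other 2 had at most 6. The log2 fold change in KO was -0.41 (95% interval -1.32 to 0.51, adjusted p = 0.6219), an interval too wide to read a direction from, and *Mitf* was not tested in Over.

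Of the myeloid factors, *Spi1* (PU.1), on mm9 chromosome 2 from 90922547 to 90955913, plus strand, was read at a similar level throughout. It had 104.5, 92.3 and 87.0 CPM in KO-con (94.6 ± 8.98) and 102.4, 107.1 and 122.2 in KO (110.6 ± 10.3). It had 103.6, 95.1 and 110.9 CPM in Over-con (103.2 ± 7.87) and 112.3, 111.6 and 104.6 in Over (109.5 ± 4.22). The groups overlapped in both comparisons, as the plot of CPM by library shows. The log2 fold change was 0.23 in KO (95% interval 0.05 to 0.42, adjusted p = 0.1026) and 0.07 in Over (-0.08 to 0.23, adjusted p = 0.7405). Without replicate 1 of KO *Spi1* passed the test in KO at 0.28 (adjusted p = 0.03276), but it did not on leaving out any other library, and without replicate 3 of KO the change was 0.15 (adjusted p = 0.3261). *Cebpa*, the factor of granulocyte and monocyte progenitors, lies on mm9 chromosome 7 from 35904312 to 35906945, plus strand, and gave no count.

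*Runx3*, a RUNX factor of T cells and natural killer cells, lies on mm9 chromosome 4 from 134676567 to 134733905, plus strand. It had 164.4, 154.3 and 141.6 CPM in KO-con (153.4 ± 11.4) and 117.3, 124.3 and 141.2 in KO (127.6 ± 12.3). The KO libraries lay below the KO-con libraries, but the highest KO and the lowest KO-con library differed by less than 1 CPM. It had 178.4, 161.3 and 186.6 CPM in Over-con (175.4 ± 12.9) and 165.6, 171.5 and 158.4 in Over (165.2 ± 6.55), which overlapped. The change in KO was -0.26 on the log2 scale (SE 0.08) and missed the threshold (adjusted p = 0.05156). The call turned on the processing: the adjusted p was 0.04368 in DESeq2 and 0.02823 with all 12 libraries in 1 fit. Without replicate 3 of KO the change was -0.35 (adjusted p = 0.009967), and leaving out any other library it did not pass, with adjusted p from 0.05282 to 0.2286. In Over the change was -0.10 (95% interval -0.25 to 0.05, adjusted p = 0.6004). *Ikzf1*, the Ikaros factor of lymphocyte development, lies on mm9 chromosome 11 from 11585006 to 11672929, plus strand, and gave no count.

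**Figure D2:**
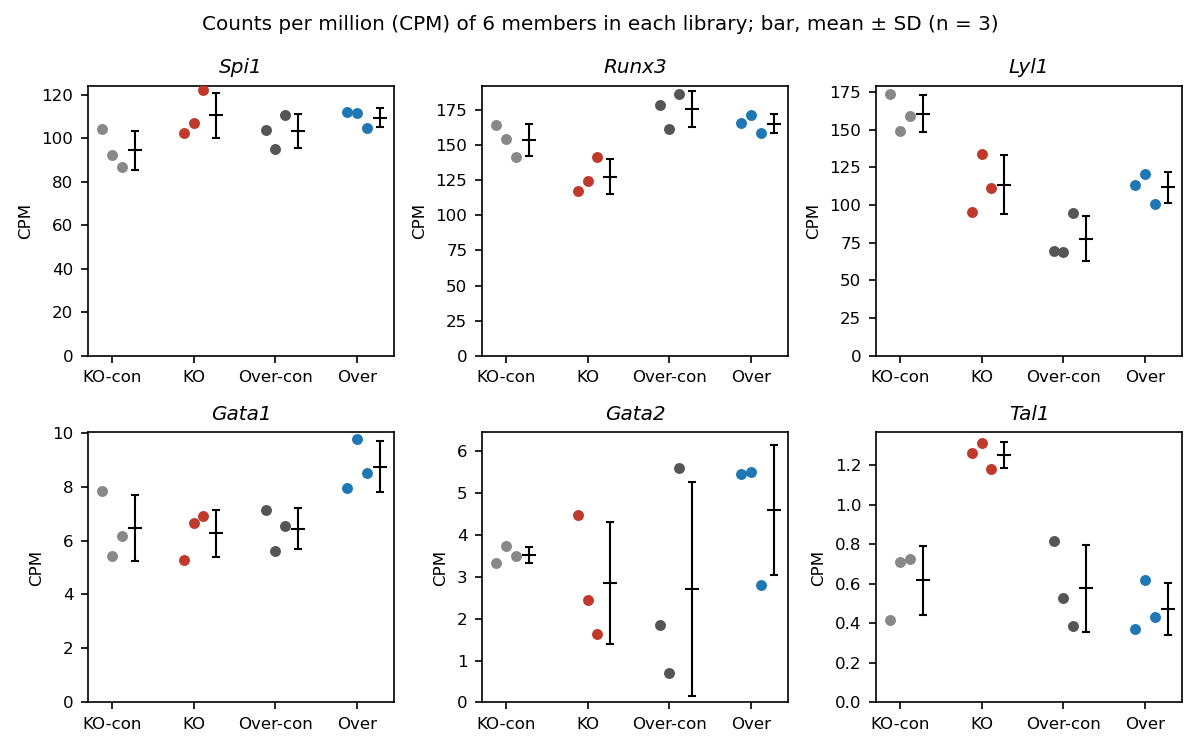
CPM of 6 members (vertical axes, from 0) in the 12 libraries, by group (horizontal axes); points are libraries and bars the mean ± SD of 3. *Lyl1* in KO lies below KO-con and in Over above Over-con, while KO-con lies above Over-con.

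Counted over the group, 7 members had a transcript that could be tested in KO and 5 in Over. In KO, 1 of 7 passed the test, a fall, where 5.96% of all 9457 transcripts tested fell, 5.83% rose and 11.8% passed in either direction. In Over, 1 of 5 passed, a rise, where 0.766% of 9401 transcripts rose, 0.883% fell and 1.65% passed. With the study's added requirement of an absolute log2 fold change over 1, 1.7% of transcripts in KO and 0.17% in Over qualified, and 0 members did in either comparison with edgeR or with DESeq2. At an unadjusted p under 0.05, where 25.4% of all transcripts stood in KO and 13% in Over, there were *Lyl1*, *Runx3* and *Spi1* in KO, besides *Tal1*, which was tested only because it was high in KO, and *Lyl1* and *Gata1* in Over. An exact two-sided permutation test of 3 libraries against 3 cannot give a p below 0.1, so such a test was not used for single members.

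Between the controls, 1 of 6 members tested passed, again *Lyl1*, with 16.3% of 9321 transcripts passing in all. The other members lay closer together: *Spi1* differed by -0.13 (95% interval -0.31 to 0.05), *Runx3* by -0.19 (-0.36 to -0.03) and *Gata1* by -0.01 (-0.43 to 0.40) in KO-con against Over-con. None of these 3 passed, the lowest adjusted p being 0.1098 for *Runx3*, which passed without replicate 2 of Over-con (adjusted p = 0.04782). For the knockout effect minus the overexpression effect, 1 of 7 members passed, where 8.64% of 9903 transcripts did.

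**Figure D3:**
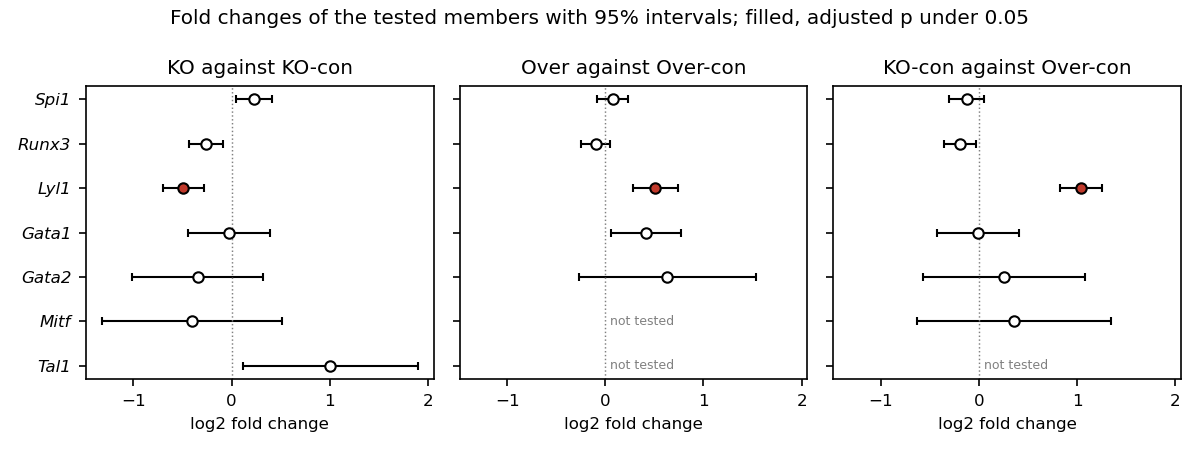
Log2 fold change (horizontal axes) with 95% interval of each tested member in 3 comparisons; filled points had an adjusted p under 0.05. Only *Lyl1* is filled, at -0.49, 0.51 and 1.04, and the intervals of *Gata2*, *Mitf* and *Tal1* are wide.

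The members did not share 1 pattern over the 12 libraries. Among the 5 members tested in all comparisons, Pearson's r of log2 CPM between members ranged from -0.25 (*Lyl1* and *Runx3*) to 0.54 (*Gata1* and *Spi1*). These and the following correlations are descriptions over 12 libraries in 4 groups, which share their group means, and the closest were picked from 9089 transcripts. The transcripts most like *Lyl1* were *Abcb6* (r = 0.97) and *Prdm11* (0.95), those most like *Runx3* were *Tes* and *Cdk18* (both 0.96), and those most like *Spi1* were *Ino80b* (0.94) and *Lhx5* (0.92). *Gata1* was most like *Actl6a* (0.93) and *Shb* (0.91), and *Gata2* was most like *Rbm42* (0.95) and *Gnas* (0.93).

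Partners and other factors of the same network were read next, from the list of 53 genes, which was chosen with earlier results of these data known. In KO, 22 of its transcripts from 19 genes were tested, of which 2 rose and 4 fell, with a median log2 fold change of -0.11 beside 0.01 over all transcripts. Among all transcripts tested in KO, 5.83% rose and 5.96% fell. *Id2*, an inhibitor that keeps E proteins from DNA, had 364.9, 306.1 and 328.0 CPM in KO-con and 183.1, 180.3 and 188.7 in KO. It fell in KO by 0.85 (SE 0.07, adjusted p = 1.34e-06), to below every KO-con library. The *Id2* means in Over-con and Over were 210.2 and 205.9 CPM, also below every KO-con library. *Ikzf2* (Helios), a relative of Ikaros listed with 1 transcript, had 172.8, 171.7 and 181.4 CPM in KO-con and 136.4, 114.6 and 122.9 in KO, and fell by 0.49 (SE 0.08, adjusted p = 0.0006294). The *Ikzf2* means in Over-con and Over were 123 and 143.8 CPM, again below every KO-con library. *Klf4*, a zinc-finger factor of monocytes and of pluripotent cells, had 87.9, 90.3 and 88.7 CPM in KO-con and 109.1, 119.6 and 132.5 in KO. It rose by 0.44 (SE 0.08, adjusted p = 0.00203), without overlap of the groups. The *Klf4* means in Over-con and Over were 81.1 and 69.5 CPM, so here KO was the group that stood highest.

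In Over, 23 transcripts from 20 genes of the same list were tested, of which 1 rose and 1 fell, with a median of 0.09 beside -0.0012 over all transcripts. Among all transcripts tested in Over, 0.766% rose and 0.883% fell. The transcript of the list that rose was *Zfpm1* (FOG-1), the cofactor that *Gata1* binds. It had 25.4, 23.9 and 27.1 CPM in Over-con and 42.1, 41.5 and 41.4 in Over, a rise of 0.69 (SE 0.09, adjusted p = 0.0005923). In KO-con it had 51.2, 49.0 and 39.1 CPM and in KO 36.1, 46.8 and 48.7, which overlapped, with a change of -0.08 (adjusted p = 0.7613). The difference between the effects was -0.77 (SE 0.16, adjusted p = 0.004195), and KO-con stood 0.87 above Over-con (adjusted p = 1.29e-05), so that here, as for *Lyl1*, the Over-con libraries were the lowest of the 4 groups.

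*Spib*, the ETS factor closest to PU.1, was the transcript of the list that passed in both comparisons in edgeR, in Over only narrowly. In DESeq2, 1 transcript of the list passed in Over, against 1 rise and 1 fall in edgeR. It had 11.99, 8.07 and 10.7 CPM in KO-con and 5.61, 6.29 and 2.18 in KO, a fall of 1.12 (SE 0.28, adjusted p = 0.01429). It had 11.7, 12.99 and 13.9 CPM in Over-con and 7.59, 9.08 and 8.70 in Over, a fall of 0.61 (SE 0.15, adjusted p = 0.04495). The groups did not overlap in either case, and the effects were not shown to differ (difference -0.51, SE 0.33, adjusted p = 0.3982). Of the partners, *Cebpg* (307.2 CPM), *Id2* (233.3), *Fli1* (195.2), *Ikzf2* (141.7) and *Zbtb7a* (136.1) took the most counts, which is not a comparison of levels since CPM is not per length, and all were listed with 1 transcript. Between the controls 4 transcripts of 21 tested were higher in KO-con and 0 lower (5 at an unadjusted p under 0.05, and 4 in DESeq2), a share near the 16.3% of all transcripts that passed there, with *Id2* at 0.66 (adjusted p = 3.99e-06) and *Ikzf2* at 0.52 (adjusted p = 5.01e-05).

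Genes known to be driven by the members were counted from lists of targets. Like all lists here, those of cell markers included, they were chosen with earlier results of these data known, so the counts are descriptions. Of 21 GATA targets, 6 could be tested in KO, of which 3 rose and 1 fell, with a median of 0.28. Over all transcripts in KO, 5.83% rose and 5.96% fell, with a median of 0.01. *Cpa3*, a carboxypeptidase of mast cell granules, had 428.6, 359.7 and 413.2 CPM in KO-con and 1151, 1146 and 1215 in KO, a rise of 1.55 (SE 0.08, adjusted p = 2.62e-09). *Itga2b*, the platelet integrin CD41, had 227.7, 219.6 and 259.6 CPM in KO-con and 306.1, 342.7 and 335.1 in KO, a rise of 0.48 (SE 0.08, adjusted p = 0.0007344). *Hdc*, which makes histamine, rose by 1.30 (SE 0.36, adjusted p = 0.02666) at a mean of 4.18 CPM in KO, and *Epor*, the erythropoietin receptor, fell by 0.45 (SE 0.13, adjusted p = 0.02902). In Over, 1 of 6 passed, where 1.65% of all transcripts did. *Cpa3* fell there by 0.30 (SE 0.06, adjusted p = 0.02473), from 803.2, 858.3 and 743.9 CPM to 635.9, 657.3 and 664.6. The globin genes of the list were at 0 in all libraries. *Gata1* and *Gata2* themselves did not pass in KO, as given above.

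Of 18 PU.1 targets, 10 could be tested in KO, of which 4 rose and 2 fell, with a median of 0.21. Over all transcripts in KO, 5.83% rose and 5.96% fell. *Fcgr1*, the high-affinity IgG receptor, had 162.6, 147.8 and 162.7 CPM in KO-con and 186.7, 208.2 and 218.3 in KO, a rise of 0.38 (SE 0.08, adjusted p = 0.003325). *Ncf4*, a subunit of the phagocyte oxidase, had 23.6, 26.9 and 28.8 CPM in KO-con and 13.4, 15.5 and 13.7 in KO, a fall of 0.89 (SE 0.13, adjusted p = 0.0002457). The lysosomal gene *Cd68* rose in KO by 0.48 (SE 0.12, adjusted p = 0.01582) and in Over by 0.51 (SE 0.09, adjusted p = 0.006448), where it was the 1 target of 9 that passed. Of all transcripts in Over, 1.65% passed. *Laptm5*, a lysosomal membrane protein of blood cells at a mean of 883.7 CPM, did not pass: the change was 0.11 in KO (adjusted p = 0.4162), and in Over it was -0.22 (adjusted p = 0.09822). Between the controls, where 16.3% of all transcripts passed, 5 of 9 PU.1 targets were lower in KO-con, among them *Ncf4* by 1.16 (adjusted p = 7.54e-08) and *Ptprc* (CD45), which fell by 0.54 from Over-con to KO-con (adjusted p = 0.0007124).

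Few targets of the other members could be tested. For *Mitf*, 4 of 20 were tested in KO and 1 passed, *Gzmb*, a granzyme of cytotoxic lymphocytes and mast cells that is also a RUNX target. It had 1.56, 1.86 and 2.17 CPM in KO-con and 0.229, 0 and 0.182 in KO, with an adjusted p of 0.0006649, while in Over-con it had 8.78, 11.8 and 11.1 CPM and in Over 8.61, 8.61 and 6.23 (adjusted p = 0.3262). In Over, 0 of 5 *Mitf* targets passed, with 2 at an unadjusted p under 0.05 and 0 in DESeq2. Of 10 RUNX targets, 3 were tested in KO and *Gzmb* was the 1 that passed, where 11.8% of all transcripts did. *Gzmb* entered the knockout comparison only because KO-con was high enough for the filter on low counts. In DESeq2, 0 of the *Mitf* or RUNX targets passed in KO. Of 10 C/EBP alpha targets, 1 was tested in KO and 3 in Over, and 0 passed in either, with 0 and 1 at an unadjusted p under 0.05 and 0 in DESeq2.

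**Figure D4:**
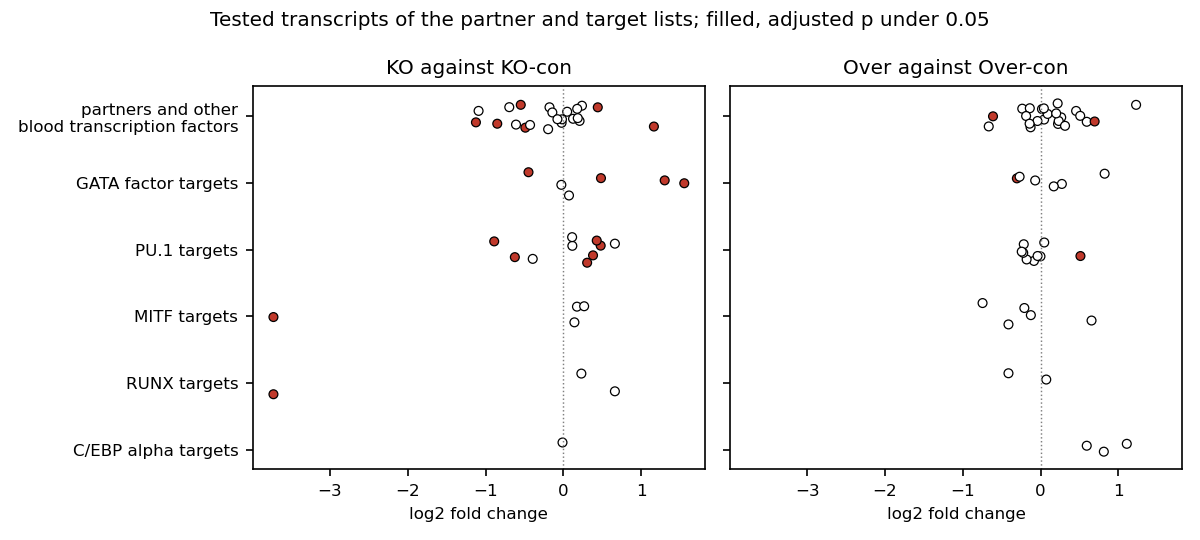
Log2 fold change (horizontal axes) of each tested transcript of the partner and target lists in KO and in Over; filled points had an adjusted p under 0.05 and the vertical scatter within a list is random. In KO filled points lie on both sides of 0 for partners, GATA targets and PU.1 targets.

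The lists of blood cell markers share genes with the target lists, among them *Cpa3*, *Hdc*, *Fcgr1*, *Cd68*, *Itga2b*, *Epor* and *Gp1ba*, so their sums are not separate measurements, and the part of such cells in the results was not tested. Mast cell markers summed to between 635.6 and 724.4 CPM in KO-con, 1601 and 1705 in KO, 1181 and 1296 in Over-con, and 1054 and 1093 in Over. Of 10 tested transcripts in KO, 5 rose and 1, *Gzmb*, fell, where 5.83% of all transcripts rose and 5.96% fell. *Cma1*, 1 of the 5, was tested only because KO was high enough for the filter on low counts, and *Gzmb* only because KO-con was. In DESeq2, 5 of the 10 passed. Between the controls, where 16.3% of all transcripts passed, 5 of 9 mast cell markers tested were lower in KO-con and 0 higher. Macrophage markers summed to between 188.9 and 211.5 CPM in KO-con and 236.0 and 278.7 in KO, mostly *Fcgr1*, with *Adgre1*, *Itgam*, *C1qa*, *C1qb* and *Ccr2* at 0. Erythroid and megakaryocyte markers, mostly *Itga2b*, lay between 283.9 and 388.5 CPM in all libraries, with the 4 globin genes of the list at 0, and of 4 tested in KO 1 rose and 2 fell. Neutrophil markers, nearly all *Cxcr2*, lay between 160.0 and 345.4 CPM, and lymphoid markers summed to at most 1.69 CPM, with 8 of 16 at 0. Ovarian somatic markers lay between 92.9 and 145.3 CPM, and endothelial markers at no more than 3.54 CPM.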

How the data were processed

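Groups and replicate numbers of the 12 libraries came from the sample titles. Per the labels and the paper's methods, RNA was prepared with a stranded mRNA kit, and the authors trimmed the reads and aligned these with HISAT2 (default settings) to mm9. The authors deposited raw counts per RefSeq transcript without normalization; the strand setting, the annotation release and the treatment of shared reads were not given in the sources used here. Accessions were matched to symbols in RefSeq's gene table for 41186 of 41388 transcripts (99.5%), and positions came from the NCBIM37 (mm9) annotation.

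Transcripts were tested with edgeR 4.0.16 (R 4.3.3; TMM, filterByExpr, glmQLFit, glmQLFTest) with p-values adjusted by Benjamini-Hochberg across every transcript in the fit, and passing means an adjusted p under 0.05. Alternatives were DESeq2 1.42.0, its size factors, no filter on low counts, a minimum of 10 counts in every library, counts summed per gene, each library left out, a replicate block, all 12 libraries in 1 fit, the other control group, and the study's fold threshold. Correlations used log2 CPM with a prior count of 2. Figures used Python 3.11.15 and matplotlib 3.10.9. The edgeR fit of KO against KO-con was tested on simulated counts. Floors of 3 counts cover counting error only.

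The members and all lists were chosen with earlier results of these data known. Named were all members, at most 3 genes per list and comparison with the lowest adjusted p under 0.05, the up to 5 most abundant genes of a list and its defining markers at 0, the 2 transcripts most like each member tested throughout, and *Dppa3*. *Cma1* was named for how it entered its test. Methylation, ChIP-seq and Hi-C data were not analysed here.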

Additional observations from a re-analysis of the deposited data

Results flagged for a closer look

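The effects of knockout and overexpression on *Lyl1* differed by -0.999 on the log2 scale (edgeR's quasi-likelihood test of the difference with all 12 libraries, adjusted p = 0.0005552). *Lyl1* was lower than its control in 3 of 3 KO libraries and higher than its control in 3 of 3 Over libraries, and it was also 1.04 higher in KO-con than in Over-con. The cause was not tested.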

How the results depend on the processing

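In KO, 1 member passed, and 2 passed with DESeq2, with its size factors in edgeR, with no filter, with at least 10 counts in every library, with counts summed per gene, with all 12 libraries in 1 fit and with Over-con as control; the added one was *Runx3* in each of these. With the fold threshold 0 passed in KO and 0 in Over. In Over, 1 member passed, against 0 with the replicate block and 2 with KO-con as control (*Lyl1* and *Spi1*). Leaving out 1 library at a time gave 1 to 2 members in KO, 0 to 2 in Over, 1 to 2 between the controls and 1 to 2 for the difference between effects. *Lyl1* turned to 0.54 in KO with Over-con as control and to -0.53 in Over with KO-con as control. The sign also turned for values that did not pass: *Runx3* in Over was 0.10 with KO-con as control, *Gata1* between the controls was 0.005 with the replicate block, and leaving out 1 library gave ranges of -0.14 to 0.12 for *Gata1* in KO, -0.17 to 0.10 for *Gata1* and -0.086 to 1.33 for *Gata2* between the controls, and -0.61 to 0.17 for *Mitf* in the difference between effects. Over single members, 335 values kept their direction and side of the threshold, 14 came to pass, 6 no longer passed and 18 turned.

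The replicate numbers did not pair the samples: deviations from the group means of samples with the same number had correlations of -0.17 to 0.05. With the block, *Lyl1* in Over was 0.52 (adjusted p = 0.07854), and the number of members passing elsewhere did not change. Depth limits *Gata2*, *Tal1* and *Mitf*, and the listing of several transcripts limits what 0 counts can say. With 3 libraries a group, the 95% interval of *Spi1* in KO still reached 0.42.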
